A study of Mus musculus with 6 samples.

Results

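The Jun peaks described here are those of a rib chondrocyte peak list that lie around Trps1, the gene of a GATA-type zinc finger protein that represses transcription. They were chosen by position alone: a peak was taken if its midpoint fell on mouse chromosome 15 between 50300001 and 51100000 on genome build mm9, a window of 800 kb. Of the 99162 peaks in the list, 58 met this rule. The gene was taken to run from about 50486000 to about 50722000, bounds rounded to 1 kb that came with the choice of the window, so it spans 236 kb of it. The rest of the window is called the lower flank, 186 kb at lower coordinates, and the upper flank, 378 kb at higher coordinates. Trps1 is read from high to low coordinates, so its upper end is the end where transcription starts.

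Jun is a subunit of AP-1, a family of paired leucine zipper proteins that bind short DNA motifs at promoters and enhancers. The study asked how AP-1 factors act with Sox9, the master regulator of cartilage, as chondrocytes enlarge into hypertrophic cells. Trps1 is known in growth cartilage as a brake on chondrocyte maturation, and its protein binds and restrains Runx2, a driver of hypertrophy. Mutations of the human gene cause tricho-rhino-phalangeal syndrome, in which the ends of the finger bones are cone-shaped.

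The peak list was taken to be that of the Jun ChIP library, made with an antibody to Jun from rib chondrocytes of untreated wild-type ICR mice at postnatal day 1. An input DNA library was prepared from the same kind of cells at the same age, and its values were not analysed here. The cells were freed from rib cartilage by enzyme digestion, and no sort by stage is described. The 4 RNA libraries of the series, from Swiss Webster mice with a Col10a1mCherry transgene (1 library of stage E18.5 before birth, 2 of postnatal day 1, 1 of postnatal day 3), were not analysed here, so nothing is said of the level of Trps1 RNA. The list gives the position of each peak and its place in the list, but no height, score or read count. There was 1 Jun library and no replicate, the depth is unknown, and no test between groups was possible. The intervals printed for counts, densities, shares and ratios are exact 95% intervals that cover counting error only, so grouped peaks make them narrower than they should be. Those of medians are 95% intervals taken from the ranked values, and they treat the peaks as independent.

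Jun peaks lay inside Trps1 and on both sides of it, at a higher density inside the gene than outside. The gene held 31 of the 58 peaks (53.4%), the upper flank 21 and the lower flank 6. Per 100 kb, the gene held 13.1 peaks (Poisson interval 8.92 to 18.6), against 5.56 (3.44 to 8.49) in the upper flank and 3.23 (1.18 to 7.02) in the lower flank. The gene was thus 2.74 times as dense as both flanks together (interval of the ratio 1.58 to 4.78). The interval of the gene's density lay above those of both flanks. The flanks' own intervals overlapped each other.

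**Figure D1:**
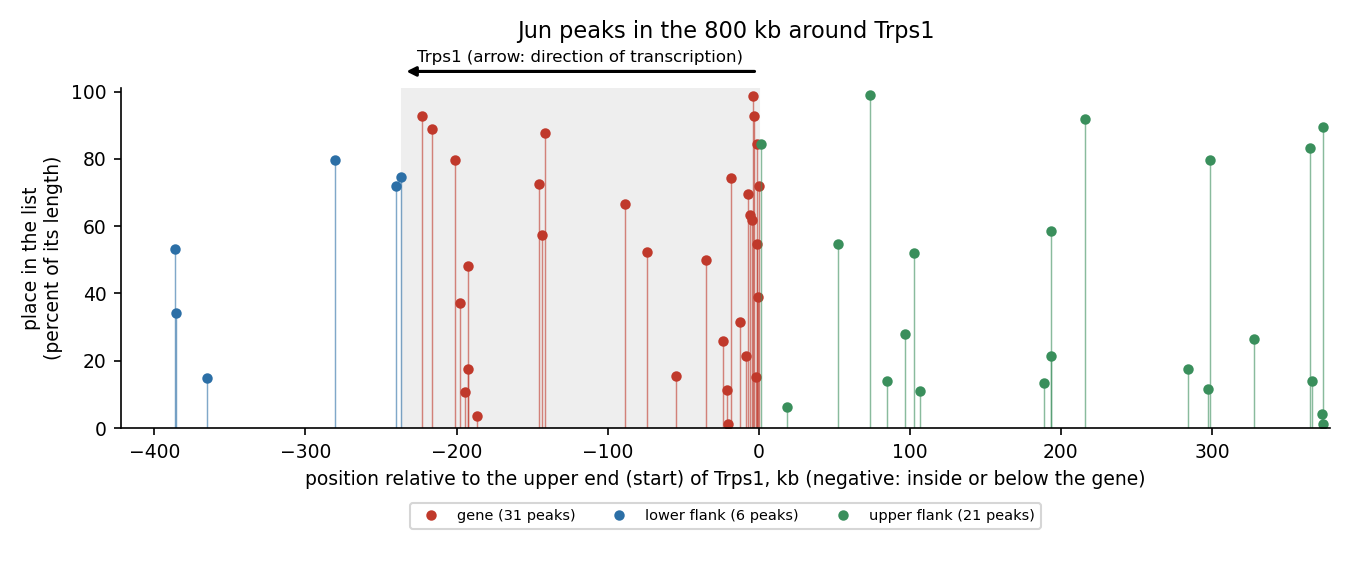
Each of the 58 Jun peaks in the window, by its distance in kb from the upper end of Trps1 (x axis) and its place in the deposited list as a percentage of the list's length (y axis; 0 is the top of the list, whose order is not explained). The 31 peaks inside the gene (grey) crowd at its upper end, and in the gene and the upper flank their places run through nearly the whole list.

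Inside the gene the peaks were unevenly spread. Cut into 3 equal pieces, the gene had 19 peaks in the piece next to the start of transcription, 4 in the middle piece and 8 in the piece at its far end. The upper piece was 4.75 times as dense as the middle piece (interval 1.58 to 19.2). Its ratio to the far piece was 2.38, with an interval of 0.993 to 6.27 that includes 1. The middle and far pieces did not differ beyond counting error either, with an interval of the ratio from 0.110 to 1.87.

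Most of the upper piece came from its last 25 kb. This stretch, which was singled out after the positions were seen, held 16 of the gene's 31 peaks (51.6%) in 10.6% of its length. That is 64.0 peaks per 100 kb (36.6 to 104). The other 211 kb of the gene held 15 peaks, or 7.11 per 100 kb (3.98 to 11.7). Without the 25 kb, the density of the gene was 1.48 times that of the flanks, with an interval of 0.734 to 2.89 that includes 1. The higher density of the gene body over its flanks was beyond counting error with the upper end counted and within it without. However, the gene's fullest 25 kb were left out while the flanks kept their own fullest stretches. The lower ratio follows in part from that choice, and these ratios are not like for like.

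**Figure D2:**
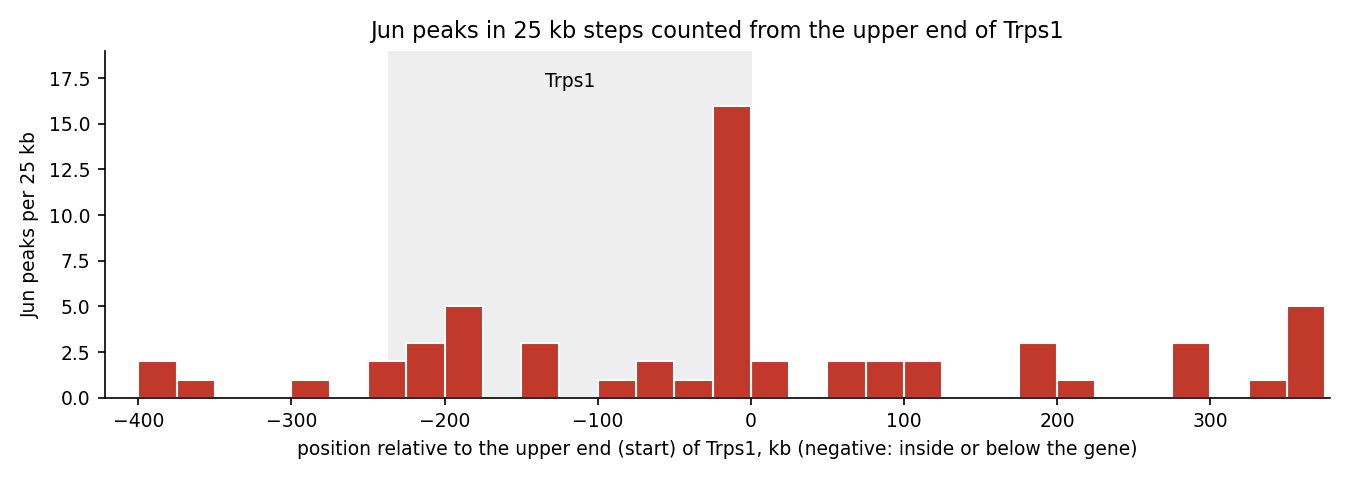
Number of Jun peaks (y axis) in steps of 25 kb counted from the upper end of Trps1 (x axis, kb; the gene is grey). The step just inside the upper end holds 16 peaks, and no other step holds more than 5.

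Within these 25 kb the peaks stood closer together towards the upper end. The last 10 kb of the gene held 11 peaks, or 110 per 100 kb (54.9 to 197). The last 5 kb held 8, or 160 per 100 kb (69.1 to 315). Each stretch lies inside the longer one, so the same peaks are counted again, and the intervals of their densities overlap. Peaks covered 37.1% of the sequence of those 5 kb, against 0.936% of the gene outside its upper 25 kb. Neighbouring midpoints were a median of 534.5 bp apart in the last 5 kb and 1133 bp in the last 25 kb. In the rest of the gene the median was 6137 bp.

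The 8 peaks nearest to the start of the gene, in the order in which they are met going into it, began with an 82 bp peak from 50721862 to 50721943, centred 97.5 bp inside the upper bound. As that bound is rounded to 1 kb, the list cannot show whether this peak lies over the first exon or just in front of it. A 104 bp peak from 50721525 to 50721628 followed, 326 bp further in. Next came a pair of wide peaks, of 356 bp from 50720844 to 50721199 and of 358 bp from 50720498 to 50720855. These were the only peaks of the window to overlap, by 12 bp, so the list divides what is 1 covered stretch into 2 peaks. A 165 bp peak from 50720060 to 50720224 lay 534.5 bp from the last of the pair. Further in stood a 191 bp peak from 50718902 to 50719092 and a 363 bp peak from 50718289 to 50718651, the widest in the gene. The eighth, of 247 bp, ran from 50717214 to 50717460. When peaks with gaps of up to 1000 bp were joined, these 8 became 1 region of 4730 bp, the largest of the window by number of peaks.

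Outside the gene, in front of its start, the crowding stopped. The nearest peak there measured 118 bp, from 50723386 to 50723503, and was centred 1444.5 bp above the bound. The one after it, of 102 bp from 50740889 to 50740990, stood 17495 bp further out. The first 25 kb above the gene held these 2 peaks, against 16 in the first 25 kb inside it.

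**Figure D3:**
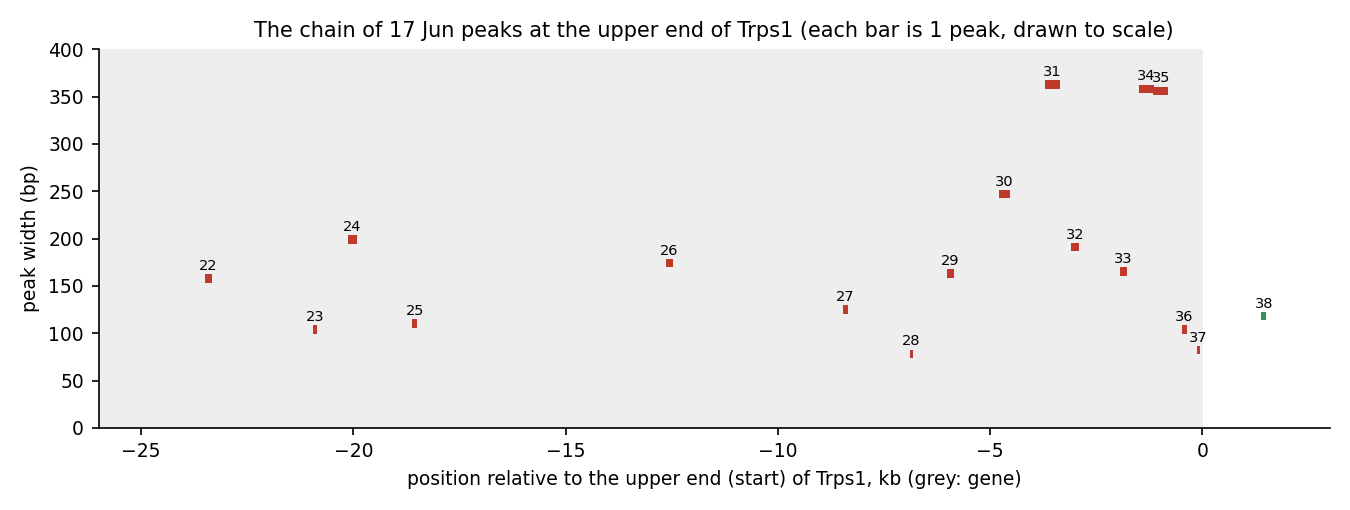
The chain of 17 Jun peaks at the upper end of Trps1, drawn to scale by position (x axis, kb from the upper end; grey is the gene) and width (y axis, bp), and numbered along the chromosome. Peaks 30 to 37 lie within the last 5 kb of the gene and hold its 4 widest peaks, of 247 to 363 bp; peak 38 is outside the gene.

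Chaining peaks whose midpoints lay within 10 kb of each other gave 23 chains in the window. Of these, 13 were lone peaks, 4 held 2 peaks, 3 held 3 peaks, and the other 3 held more. The fullest was the chain of 17 at the start of the gene, which ran 24.9 kb between its outer midpoints, from 50698510 to 50723503. Its far part, 8.41 to 23.4 kb inside the gene, was looser, with 6 peaks of 104 to 199 bp. Peaks of 78 and 163 bp, 6.86 and 5.94 kb inside the gene, joined it to the 8 at the start. The gap of 6000 bp in it, between the peaks ending at 50703501 and starting at 50709360, was the longest of the chain.

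The second chain lay deep in the gene and held 6 peaks over 14.5 kb, from 50520825 to 50535412. Its peaks were 145, 105, 197, 120, 167 and 90 bp wide from low to high coordinates. The closest of them, the 120 bp and the 167 bp peak, were 468.5 bp apart. The first of the chain was centred 201 kb from the start of the gene and 34.9 kb from its far end.

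The third chain lay in the upper flank, far in front of the gene, and held 5 peaks over 8.95 kb, from 51086851 to 51095893. Its first 2 peaks, of 89 and 99 bp, were 1510 bp apart. The other 3, of 98, 142 and 96 bp, stood 6240.5 bp further on and became 1 region of 1297 bp when joined at 1000 bp. Their distance from the start of the gene was 373 to 374 kb. The last of them was also the last peak of the window, centred 4154.5 bp inside its upper bound.

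The remaining gene peaks were scattered. A chain of 3, of 95, 167 and 115 bp, lay from 50576562 to 50580807 between the 2 longest gaps of the gene, of 41.2 kb below it and 53.1 kb above it. Then 4 lone peaks of 80, 140, 204 and 156 bp stood 88.2, 73.7, 54.5 and 34.7 kb inside the start. At the far end, the gene began with a chain of 2, a 67 bp peak from 50499125 to 50499191 and a 127 bp peak from 50505903 to 50506029. The first of these was centred 13.2 kb inside the lower bound.

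Just below that bound stood a 79 bp peak from 50484970 to 50485048, centred 991 bp outside it. As the bound is rounded to 1 kb, the list cannot show whether this peak lies inside the gene or behind its end. The next peak further out was the widest of the whole window, 434 bp from 50481514 to 50481947. Only 4 more peaks lay in the lower flank: a 96 bp peak from 50441213 to 50441308, a 125 bp peak from 50356577 to 50356701, and a chain of 2, of 123 and 95 bp, that began at 50335477. This flank also held the longest gap of the window, 84.6 kb between the peaks that end at 50356701 and start at 50441213.

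Between the start of the gene and the chain of 5, the peaks of the upper flank stood alone or in small chains. Lone peaks of 102, 103, 24 and 123 bp stood 18.9, 52.3, 73.5 and 84.6 kb in front of the gene. A chain of 3 ran from 50818730 to 50828871, about 97 to 107 kb in front of the gene, and another from 50910629 to 50915712, 189 to 194 kb in front of it. The chain at 50910629 held the closest pair of midpoints in the window, 254.5 bp apart. The gap between these chains, 81.9 kb, was the second longest of the window, and the third longest, 68.1 kb, lay further up, after the lone 36 bp peak that ends at 50938027. Beyond it stood a lone peak of 100 bp from 51006073, a chain of 2, of 85 and 123 bp, from 51019319 to 51020929, and a lone peak of 55 bp from 51050066. The first peaks outside the window were 59267 bp below its lower bound and 16768.5 bp above its upper bound.

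**Figure D4:**
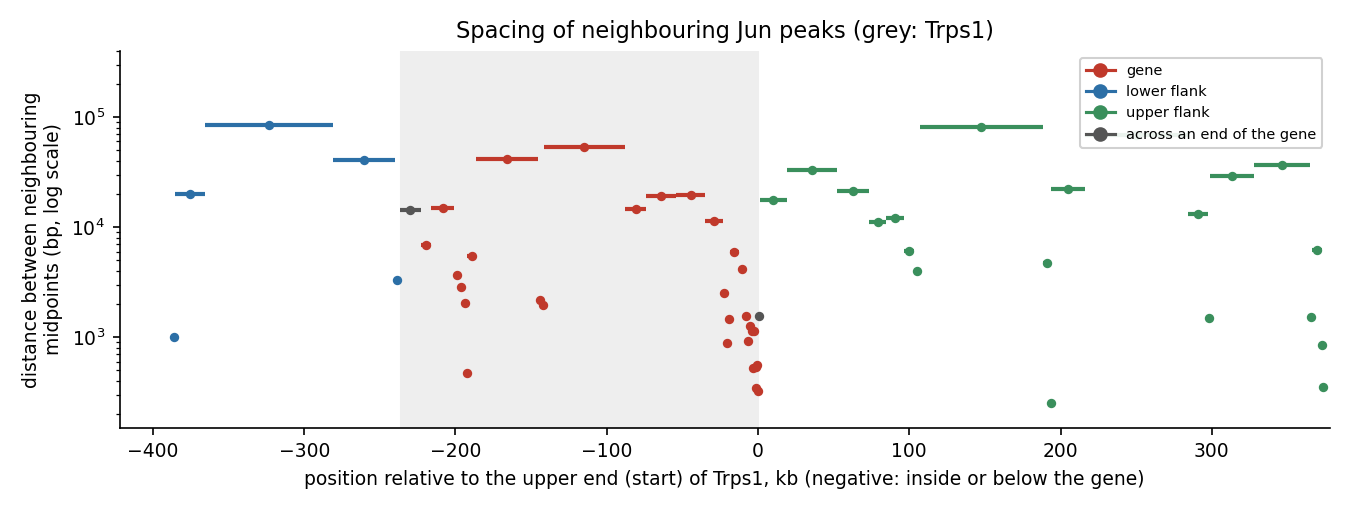
Distance between the midpoints of neighbouring Jun peaks (y axis, bp, log scale), drawn between the 2 peaks as a line with a dot at its middle, by position relative to the upper end of Trps1 (x axis, kb; the gene is grey). The shortest distances inside the gene, 326 to 555 bp, lie at its upper end, apart from 1 of 468.5 bp in the chain of 6; the 3 longest of the window, 68.1 to 84.6 kb, lie in the flanks.

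Over the window the median distance between neighbouring midpoints was 4145.5 bp, with the central 50% between 1275 and 17495 bp. On the autosomes together it was 5590 bp, with the central 50% between 1113 and 19030 bp. Without the upper 25 kb of the gene the window's median was 11647 bp (interval 3979 to 19254 bp). The autosomal median was lower but lay inside that interval. The 25 kb were singled out for their crowded peaks, and no such stretches were left out of the autosomes. These medians are therefore not like for like. Inside the gene the median was 2124 bp, against 11647 bp in the upper flank and 20088 bp in the lower flank. The nearest other peak was within 10 kb for 27 of the 31 gene peaks (87.1%, exact binomial interval 70.2 to 96.4) and for 18 of the 27 flank peaks (66.7%, 46.0 to 83.5). These intervals overlapped. For the 58 peaks of the window the share was 77.6% (64.7 to 87.5), against 80.9% of all autosomal peaks, a value inside that interval. Without the peaks in the upper 25 kb of the gene, the window's share was 69.0% (52.9 to 82.4).

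The window was denser than most of its chromosome. It held 7.25 peaks per 100 kb (5.51 to 9.37), against 4.47 (4.34 to 4.60) in the rest of chromosome 15 and 4.07 (4.05 to 4.10) on all autosomes. The ratio of the window to the rest of the chromosome was 1.62 (1.23 to 2.10). Without the upper 25 kb of the gene it was 1.21, with an interval of 0.873 to 1.64 that includes 1. Those 25 kb were singled out for their crowded peaks, while the rest of the chromosome kept its own crowded stretches. The fall of the ratio follows in part from that choice, and the values are not like for like. The flanks taken by themselves were at 1.07 times the rest of the chromosome (0.705 to 1.56), that is, not distinguishable from it by counting error. The whole gene was at 2.94 times (1.99 to 4.18).

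Among 2980 autosomal tiles of 800 kb laid so that the window was one of them, 80.0% held fewer than its 58 peaks, and the median tile held 26. On chromosome 15, 31 of 124 such tiles held more. Of 95997 autosomal tiles of 25 kb, laid from the upper end of the gene, 0.123% held 16 peaks or more, as the tile at the start of Trps1 did. The fullest held 30. Since that tile was picked for its peaks, its rank is a description. The window was chosen with earlier results of these data known, so its rank and its ratio to the chromosome are descriptions too.

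**Figure D5:**
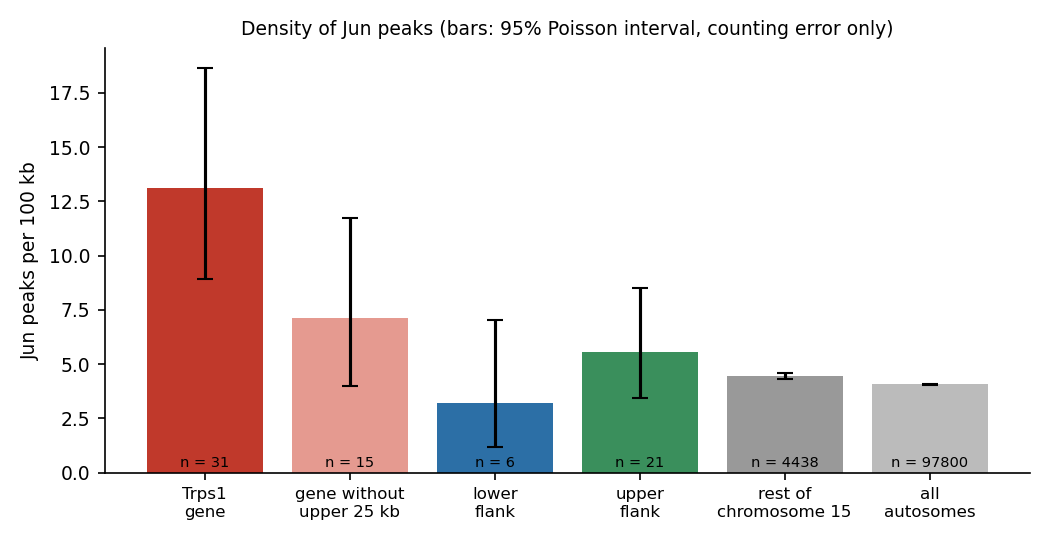
Density of Jun peaks (y axis, peaks per 100 kb) in Trps1, in the gene without its upper 25 kb, in both flanks, in the rest of chromosome 15 and on all autosomes, with exact 95% Poisson intervals. The gene stands at 13.1, and at 7.11 without its upper 25 kb, against 4.47 in the rest of the chromosome.

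Trps1 lies in gene-poor sequence. In the RefSeq gene table of the later build GRCm38.p6, which was used for names and order only, the next protein-coding genes are Csmd3 on the lower side and Eif3h, which encodes a subunit of a translation initiation factor, on the upper side. Between Trps1 and these, the table lists 7 genes on the lower side and 6 on the upper side, all non-coding RNAs or pseudogenes. It also lists a microRNA gene, Mir1907, inside Trps1. The peaks were not assigned to any of these, since their mm9 positions were not used here. The 800 kb tile just above the window held 52 Jun peaks and the tile just below it 19. The next tiles below held 3 and 5, and those above held 8 and 30.

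By their median, the peaks in Trps1 were wider than those beside it, which was not tested. The median width was 145 bp in the gene (67 to 363 bp, n = 31) and 100 bp in the flanks (24 to 434 bp, n = 27), and the central 50% ran from 104.5 to 182.5 bp in the gene and from 90.5 to 123 bp in the flanks. The ranges overlapped almost completely. Peaks of at least 200 bp made up 16.1% of the gene's peaks (5 of 31), 3.70% of the flanks' (1 of 27) and 10.3% of the window's (6 of 58). The share was 13.9% in the rest of chromosome 15 and 14.0% on all autosomes. Of the 5 in the gene, 4 lay in its upper 5 kb, where the median width was 219 bp. In the gene outside its upper 25 kb the median was 127 bp. For the window as a whole it was 116.5 bp, against 114 bp on all autosomes. The narrowest peaks, of 24, 36 and 55 bp, all lay in the upper flank, starting at 50795516, 50937992 and 51050066.

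The order of the deposited list is not explained in the sources used here, so a place in it is given as a place and not as a strength. The 58 peaks ran from place 1203 to place 98289 of 99162, with a median of 51607.5, at 52.0% of the list. The gene's median was place 54252 and that of the flanks 34001. The upper flank's median was 26247, and the lower flank's, with only 6 peaks, was 62033. The first 50% of the list held 12 of the 21 upper flank peaks, 14 of the 31 gene peaks and 2 of the 6 lower flank peaks. Even the median of all 58 peaks had a wide interval, 27746 to 62692, and the differences between the parts were not tested. Of the 58 peaks, 5 stood in the first 10% of the list, 12 in the second 10% and 2 in the fifth 10%, where an even spread would give 5.8 each.

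The earliest peak lay in the gene, 20023 bp inside its start, at place 1203. It was 199 bp wide, from 50701878 to 50702076, in the looser part of the chain of 17. The second earliest, at place 1310, was the last peak of the window, 374 kb in front of the gene, and a neighbour of it in the same chain of 5 was at place 4123. Place 3597 belonged to the 90 bp peak from 50535323 to 50535412 that closes the chain of 6. Place 6315 belonged to the 102 bp peak that stood 18.9 kb in front of the start. Places 10561, 10912 and 11066 followed, for a 197 bp peak in the chain of 6, a 91 bp peak from 50828781 in the upper flank and a 104 bp peak from 50701049 next to the earliest one.

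The dense last 5 kb of the gene was not where the early places were. Its 8 peaks had a median place of 66398.5, at 67.0% of the list, and the earliest of them, the 165 bp peak, was at place 15164. The widest of them, of 363 bp, was at place 97834, among the 3 latest of the window. The other late ones were the 24 bp peak at 98289 in the upper flank and the 67 bp peak at 92086 near the far end of the gene. The 434 bp peak behind the gene was at place 71403. Across the 58 peaks, Spearman's rho between place and width was -0.0080, a description over peaks that share 1 library.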

How the data were processed

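The authors deposited the Jun peaks as chromosome, start and end of each interval on mm9, per the submitters' processing notes; the file has no header, no score and no sample name, and the only Jun ChIP sample was assumed as its source. For the aligner, peak caller, threshold and use of the input: not given in the sources used here. Chromatin was sheared to 100 to 600 bp, per the labels' protocols. Starts were converted to count from 1, and a peak was placed by its midpoint. The window, the gene bounds, the pieces and the peaks named were chosen with earlier results of these data known. Peaks were named by rule: the 8 earliest and 3 latest in the list, the 5 widest and 3 narrowest, those next to each gene end and window bound, those beside the 3 longest gaps, and the 3 fullest chains. Other peaks were described after their values were seen. Density used the span between the first and last midpoint of a chromosome. Ratios carry exact conditional binomial intervals, and medians carry intervals taken from the ranked values. Calculations used Python 3.11.15, pandas 2.3.3, numpy 2.4.6 and scipy 1.17.1, and the functions were tested on simulated data. Alternatives joined peaks within 1000 bp, left out peaks under 50 bp, used overlap in place of midpoints, widened the gene bounds, used the first or last 50% of the list or other distances, and, added after seeing the data, left out the upper 25 kb of the gene.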

Additional observations from a re-analysis of the deposited data

How the results depend on the processing

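No paired analysis was possible because there was 1 Jun library and no test. The peak count of the window was 58 by overlap, 56 with peaks of at least 50 bp and 44 with peaks within 1000 bp joined. With the opening 50% of the list alone it was 28, and with the closing 50% it was 30, since fewer peaks enter. The gene held 14 and 17 peaks in these parts, 21 regions after joining, 32 with bounds widened by 1 kb, 34 by 5 kb, and 15 without its upper 25 kb. The ratio of gene to flanks stayed above 1 under all 8 alternatives run, from 1.48 without the upper 25 kb to 3.19 with bounds widened by 5 kb. The interval of the 1.48, 0.734 to 2.89, includes 1. The ratio of the window to the rest of chromosome 15 ran from 1.21 without those 25 kb to 1.70 in the last 50% of the list. The interval of the 1.21, 0.873 to 1.64, also includes 1. Both of these leave out, on 1 side of the ratio only, a stretch singled out for its crowded peaks. Their lower values follow in part from that choice. Median spacing, 4145.5 bp over the window, was 10006 bp in the first and 14149 bp in the last 50% of the list, 11081 bp with peaks joined and 11647 bp without the upper 25 kb, which hold short spacings (median 1133 bp). The share of peaks with a neighbour was 51.7% within 2 kb and 100% within 50 kb. Median place and median width stayed inside their intervals under every alternative run for them. The median place moved most with peaks joined, to 35488. A joined region takes the earliest place of its members, so joining can only make its place earlier. Without read depth, sequence free of peaks cannot be called unbound.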

Other observations

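Of the 58 peaks around Trps1, only the 118 bp peak in front of its start and the 358 bp peak just inside it held consecutive places in the list, 83856 and 83857, and they lie 2768 bp apart on the chromosome. Across the whole list, 7.79% of rows were followed by a row of the same chromosome, against 5.45% if the order ignored chromosomes. That share was 5.70% in the first 10% of the list and 11.9% in the seventh 10%. What sets the order was not tested.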
